A study of Mus musculus with 24 samples.

Results

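The 10 genes described here encode receptors that phagocytes use to read their surroundings and the proteins that carry the signal: Trem2, Tyrobp, Fcer1g, Fcgr1, Fcgr2b, Fcgr3, Clec7a, Syk, Plcg2 and Inpp5d. They were chosen by symbol as ITAM-linked receptors and their partners, with no cut on their values but with earlier results of these data known. All 10 were found among the 57126 genes of the count files. Each of 12 mice (strain BALB/cNctr-Npc1m1N/J) gave a cerebellar and a hippocampal library, 24 libraries in all, made with an amplicon panel that reads a short stretch of each transcript. There were 3 groups of 4 mice: Npc1+/+ with vehicle, Npc1-/- with vehicle, and Npc1-/- with 30 mg/kg of dipyridamole, a drug that blocks nucleoside uptake and phosphodiesterases. Injections were given on 5 days per week from postnatal day 28. The Npc1+/+ mice were 65 days old and all female, and the Npc1-/- mice were 63 days old, with 3 males and 1 female in the vehicle group and 2 males and 2 females in the dipyridamole group. Npc1-/- mice lack a working NPC1, a lysosomal cholesterol transporter, in every cell, and model Niemann-Pick disease type C1. Sex was a term in each fit, and age cannot be told apart from genotype.

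In the brain these receptors belong mainly to microglia, the resident macrophages. Trem2 binds lipids and lipoproteins and signals through the adaptor Tyrobp, Fcgr1 and Fcgr3 bind antibodies and signal through the adaptor Fcer1g, and Clec7a binds beta-glucans and carries its own signalling motif. The phosphorylated motifs recruit the kinase Syk, which activates the phospholipase Plcg2, while Fcgr2b and the lipid phosphatase Inpp5d restrain the same route.

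The libraries held between 1833609 and 11590081 counts (median 7.98 M), and the shallowest was the cerebellum of Npc1-/- vehicle replicate 2. Npc1 itself lay between 13.4 and 37.5 CPM (counts scaled to a library size of 1 M) in the 16 Npc1-/- libraries and between 63.6 and 107 CPM in the 8 Npc1+/+ libraries. The summed level of 9 cerebellar markers was 3293 CPM or more in each cerebellar library and 143 CPM or less in each hippocampal one, and that of 8 hippocampal markers was 644 CPM or more in hippocampus and 269 CPM or less in cerebellum. Within the cerebellum the same 9 markers summed to 6045 to 7309 CPM in Npc1+/+ mice and 3293 to 3906 CPM in Npc1-/- vehicle mice; the part of this shift in the results below was not tested. The choroid plexus, which lies against the hippocampus, came along unevenly: its 8 markers summed to between 83.1 and 8111 CPM in hippocampal libraries and between 56.1 and 2880 CPM in cerebellar ones. Npc1-/- vehicle replicate 1 had the lowest choroid plexus score in cerebellum, 1.92 against 4.49 to 5.63 in the others. Both libraries of dipyridamole replicate 4 carry the same sequencing barcode in the labels. CPM are on 1 scale over all 24 libraries, and they compare a gene between libraries, not genes with each other, because each gene is read by its own amplicon.

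In the cerebellum, all 8 of the genes with enough counts to test were higher in Npc1-/- vehicle mice than in Npc1+/+ vehicle mice, from 3.19-fold for Fcgr1 to 52.2-fold for Clec7a. Of these, Clec7a passed the count filter through the Npc1-/- libraries, so it could only be called higher. The receptor Trem2, its adaptor Tyrobp and the Fc receptor adaptor Fcer1g rose by similar factors, 12.0-fold, 12.2-fold and 9.30-fold. Of all 12921 genes tested, 5.91% were called higher and 4.04% lower at an adjusted p under 0.05 (edgeR's quasi-likelihood test, Benjamini-Hochberg over all genes tested). The median fitted log2 difference was 2.82 over the 8 genes and 0.01 over all genes. The groups did not overlap for 8 of these 8 genes, against 10.6% of all tested genes that were higher with no overlap. Without Npc1-/- vehicle replicate 1, the cerebellum low in choroid plexus, 8 genes were again called. In bulk tissue, more microglia and more RNA per microglial cell cannot be told apart.

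Clec7a, the beta-glucan receptor (ENSMUSG00000079293.13, GRCm39 chromosome 6, 129438554 to 129449742, minus strand), went from near the detection limit to a well-counted gene. In Npc1+/+ cerebellum it stood at 0.868, 1.10, 0.641 and 0.606 CPM, from 5 to 11 counts per library. It thus passed the count filter through the Npc1-/- libraries, where it was high, so it could only be called higher. In Npc1-/- vehicle cerebellum it stood at 53.7, 43.1, 39.2 and 39.1 CPM, and every one of these libraries was far above every Npc1+/+ library. The fitted log2 difference was 5.71 ± 0.26 (SE; edgeR adjusted p = 1.17e-10), which placed Clec7a at rank 2 by p among all tested genes. Because of the filter, this call and rank are descriptions. In hippocampus the 4 Npc1+/+ libraries held 0.813, 0.117, 1.21 and 1.21 CPM, and the 4 Npc1-/- vehicle libraries 11.4, 6.87, 13.7 and 13.1 CPM. The Npc1+/+ values came from 1 to 9 counts per library. There too Clec7a passed the count filter through the Npc1-/- libraries and could only be called higher. The groups again did not overlap, and the fitted difference was 4.12 ± 0.47 (SE; edgeR adjusted p = 4.45e-04).

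Trem2 (ENSMUSG00000023992.15, chromosome 17, 48653429 to 48661175, plus strand), the lipid-sensing receptor, was measured at 3.04, 3.40, 3.33 and 5.45 CPM in Npc1+/+ cerebellum. The Npc1-/- vehicle cerebellum had 42.2, 88.3, 52.9 and 44.7 CPM, a spread of 57.0 ± 21.4 CPM (SD, n = 4) with no overlap. The fitted log2 difference was 3.58 ± 0.30 (SE; edgeR adjusted p = 2.25e-07). In hippocampus Trem2 already stood higher in Npc1+/+ mice, at 17.7, 7.85, 15.0 and 10.4 CPM. Npc1-/- vehicle hippocampus had 26.3, 62.3, 67.4 and 28.2 CPM, which split into a low and a high pair of mice, both above the Npc1+/+ range. The fitted difference there was 2.03 ± 0.36 (SE; edgeR adjusted p = 0.0112).

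Tyrobp, the membrane adaptor that carries the ITAM for Trem2 (ENSMUSG00000030579.11, chromosome 7, 30113185 to 30117010, plus strand), rose with it. Cerebellar values were 6.51, 6.49, 6.92 and 8.60 CPM in Npc1+/+ mice and 107, 63.2, 78.9 and 91.2 CPM in Npc1-/- vehicle mice. The groups lay far apart, and the fitted log2 difference was 3.61 ± 0.22 (SE; edgeR adjusted p = 5.04e-09). Hippocampal values were 12.6, 16.9, 16.8 and 18.3 CPM against 67.0, 48.9, 69.8 and 54.9 CPM, again with no overlap. The fitted hippocampal difference was 2.14 ± 0.20 (SE; edgeR adjusted p = 1.79e-04), the smallest adjusted p of the 10 genes in that tissue.

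Fcer1g, the shared gamma chain that gives Fc receptors their ITAM (ENSMUSG00000058715.12, chromosome 1, 171057141 to 171061934, minus strand), varied little among the Npc1-/- vehicle cerebella, at 26.4 ± 0.787 CPM (SD, n = 4). The 4 Npc1-/- vehicle cerebella held 27.2, 26.7, 25.3 and 26.4 CPM, against 3.91, 2.7, 1.54 and 2.30 CPM in Npc1+/+ cerebellum. The groups were wide apart, with a fitted log2 difference of 3.22 ± 0.25 (SE; edgeR adjusted p = 1.09e-07). In hippocampus the values were 7.13, 7.03, 5.64 and 8.15 CPM in Npc1+/+ mice and 14.7, 12.6, 19.2 and 16.8 CPM in Npc1-/- vehicle mice. The fitted difference there was 1.34 ± 0.22 (SE; edgeR adjusted p = 0.00763).

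Among the Fc receptors, Fcgr3, a low-affinity activating receptor for immunoglobulin G (ENSMUSG00000059498.14, chromosome 1, 170878743 to 170892504, minus strand), had the highest counts. It stood at 9.20, 12.2, 9.36 and 8.84 CPM in Npc1+/+ cerebellum and 55.9, 52.4, 49.4 and 57.7 CPM in Npc1-/- vehicle cerebellum, with a fitted log2 difference of 2.42 ± 0.18 (SE; edgeR adjusted p = 7.56e-08). In hippocampus it stood at 25.5, 26.7, 25.6 and 29.9 CPM against 55.9, 53.3, 64.8 and 58.4 CPM, a difference of 1.16 ± 0.16 (SE; edgeR adjusted p = 0.00208). Both tissues of the Npc1-/- mice thus reached about the same Fcgr3 level from different starting levels. Fcgr3 is uncertain in 1 respect: 12.79% of the 50-base stretches of its longest annotated transcript also occur in Fcgr2b, so reads of these paralogs could be split between them. Fcgr2b, the inhibitory receptor, was scarcely detected, with 18 counts over all 24 libraries, at most 3 in any library and 0 in all 4 Npc1+/+ cerebella. It was too low to test.

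Fcgr1, the high-affinity activating receptor (ENSMUSG00000015947.11, chromosome 3, 96190225 to 96201285, minus strand), rose less. Its level was 2.07 ± 0.346 CPM in Npc1+/+ cerebellum and 6.53 ± 2.05 CPM in Npc1-/- vehicle cerebellum (SD, n = 4 each), with ranges of 1.65 to 2.40 and 4.62 to 9.33 that did not overlap. The fitted log2 difference was 1.67 ± 0.32 (SE; edgeR adjusted p = 0.00228). In hippocampus the levels were 4.01 ± 1.07 and 6.60 ± 1.40 CPM (SD, n = 4 each), the ranges of 3.02 to 5.04 and 5.49 to 8.55 did not overlap, and the fitted difference of 0.78 ± 0.31 did not pass (SE; edgeR adjusted p = 0.313).

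The signalling enzymes moved by smaller factors than Clec7a, Trem2 and the adaptors. Plcg2, the phospholipase that produces second messengers downstream of Syk (ENSMUSG00000034330.11, chromosome 8, 118225030 to 118361881, plus strand), was 1.49 ± 0.434 CPM in Npc1+/+ and 4.66 ± 0.868 CPM in Npc1-/- vehicle cerebellum (SD, n = 4 each). The fitted log2 difference was 1.70 ± 0.38 (SE; edgeR adjusted p = 0.00679), and a fit of the Npc1+/+ and Npc1-/- vehicle libraries alone gave adjusted p (edgeR) of 0.125 for Plcg2 and 0.0856 for Fcgr1. Among female mice only, Plcg2 differed by 1.40 (edgeR adjusted p = 0.0693). In hippocampus Plcg2 was 2.54 ± 0.938 against 3.9 ± 0.683 CPM (SD, n = 4 each), with overlapping ranges and a fitted difference of 0.45 ± 0.38 that did not pass (SE; edgeR adjusted p = 0.688). Inpp5d, the phosphatase that removes the lipid product of PI3-kinase (ENSMUSG00000026288.15, chromosome 1, 87548034 to 87648229, plus strand), was 3.55 ± 1.3 against 9.73 ± 2.53 CPM in cerebellum (SD, n = 4 each). Its fitted difference there was 1.70 ± 0.44 (SE; edgeR adjusted p = 0.0200), and without Npc1-/- vehicle replicate 3 it was 1.55 (edgeR adjusted p = 0.229), while with the replicate block it was 1.53 (edgeR adjusted p = 0.129). In hippocampus Inpp5d was 6.53 ± 1.32 against 11.4 ± 2.97 CPM (SD, n = 4 each), ranges of 5.15 to 8.30 and 8.24 to 15.4 that touched, and its difference of 1.01 ± 0.26 did not pass (SE; edgeR adjusted p = 0.0733). DESeq2 called that same difference at an adjusted p of 0.0169.

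Syk, the kinase that binds phosphorylated ITAMs (ENSMUSG00000021457.15, chromosome 13, 52737209 to 52802828, plus strand), gave 200 counts over the 24 libraries, from 1 to 20 per library. The 4 Npc1+/+ cerebella held 5, 3, 1 and 1 counts and the 4 Npc1-/- vehicle cerebella 15, 2, 9 and 8, or 0.246 ± 0.150 and 1.27 ± 0.348 CPM (SD, n = 4 each). In hippocampus the levels were 0.934 ± 0.187 and 1.14 ± 0.852 CPM (SD, n = 4 each), with overlapping ranges. Syk was below the count filter within each tissue, so no genotype test was made for it there.

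The promoters of 9 of the 10 genes were in the RefSeq promoter table (GRCm38.p6, an older build than the GRCm39 of the counts); Tyrobp was not. The 250 bases before the start are shown for the receptors Clec7a, Trem2 and Fcgr3, which rose in both tissues, and for the enzymes Inpp5d and Plcg2, which rose in cerebellum. Capitals mark 3 motifs that were searched on both strands: GAGGAA (a core bound by the myeloid factor PU.1), CACGTG (the E-box bound by MiT/TFE factors, among others) and TGANTCA. The last is the AP-1 element loosened so that N is any base, not only C or G.
Clec7a (chr6:129472780-129473029, minus strand): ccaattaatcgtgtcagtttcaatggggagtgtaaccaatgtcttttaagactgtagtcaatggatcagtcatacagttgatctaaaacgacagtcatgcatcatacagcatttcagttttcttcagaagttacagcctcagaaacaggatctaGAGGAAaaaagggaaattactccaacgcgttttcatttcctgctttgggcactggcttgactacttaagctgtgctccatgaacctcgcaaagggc
Trem2 (chr17:48346151-48346400, plus strand): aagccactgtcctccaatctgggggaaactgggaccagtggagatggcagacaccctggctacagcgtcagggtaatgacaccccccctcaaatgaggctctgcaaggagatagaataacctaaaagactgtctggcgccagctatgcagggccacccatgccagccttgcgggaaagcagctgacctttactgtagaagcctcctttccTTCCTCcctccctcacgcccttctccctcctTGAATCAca
Fcgr3 (chr1:171059404-171059653, minus strand): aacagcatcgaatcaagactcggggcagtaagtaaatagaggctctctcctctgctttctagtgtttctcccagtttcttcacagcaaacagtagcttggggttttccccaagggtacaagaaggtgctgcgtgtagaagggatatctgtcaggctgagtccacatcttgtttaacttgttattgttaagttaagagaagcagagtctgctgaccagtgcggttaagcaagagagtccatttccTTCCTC
Inpp5d (chr1:87620062-87620311, plus strand): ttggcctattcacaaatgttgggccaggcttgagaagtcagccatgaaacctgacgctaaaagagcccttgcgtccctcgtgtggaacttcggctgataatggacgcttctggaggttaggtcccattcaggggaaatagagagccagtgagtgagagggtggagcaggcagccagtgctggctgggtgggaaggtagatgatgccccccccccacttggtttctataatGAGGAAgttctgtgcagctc
Plcg2 (chr8:117498025-117498274, plus strand): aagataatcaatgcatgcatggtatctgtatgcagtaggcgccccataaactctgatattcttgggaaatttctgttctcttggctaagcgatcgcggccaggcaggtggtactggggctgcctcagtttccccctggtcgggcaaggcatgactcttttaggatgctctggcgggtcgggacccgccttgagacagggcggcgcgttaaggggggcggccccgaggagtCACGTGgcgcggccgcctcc

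GAGGAA, read as TTCCTC on the other strand, was found before 1 or more starts of 6 of the 9 genes: Clec7a, Trem2, Fcgr3, Fcgr1, Inpp5d and Syk. Of all 32851 promoter windows of the same length, 23.3% held it. That share is per window, while the 9 genes had 12 windows and a gene counted if any of its windows held the motif. Syk held it before only 1 of its starts. It ended 1 base before the listed start in Fcgr3, 15 bases before it in Inpp5d, 35 in Trem2, 50 in Fcgr1 and 91 in Clec7a. CACGTG was found only in Plcg2, from 20 to 15 bases before the start, and in 6.02% of all windows. TGANTCA was found only in Trem2, from 9 to 3 bases before the start, and in 6.75% of all windows. The Trem2 match reads TGAATCA, without the central C or G of the AP-1 element. Fcer1g and Fcgr2b held none of the 3 in this window.

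**Figure D1:**
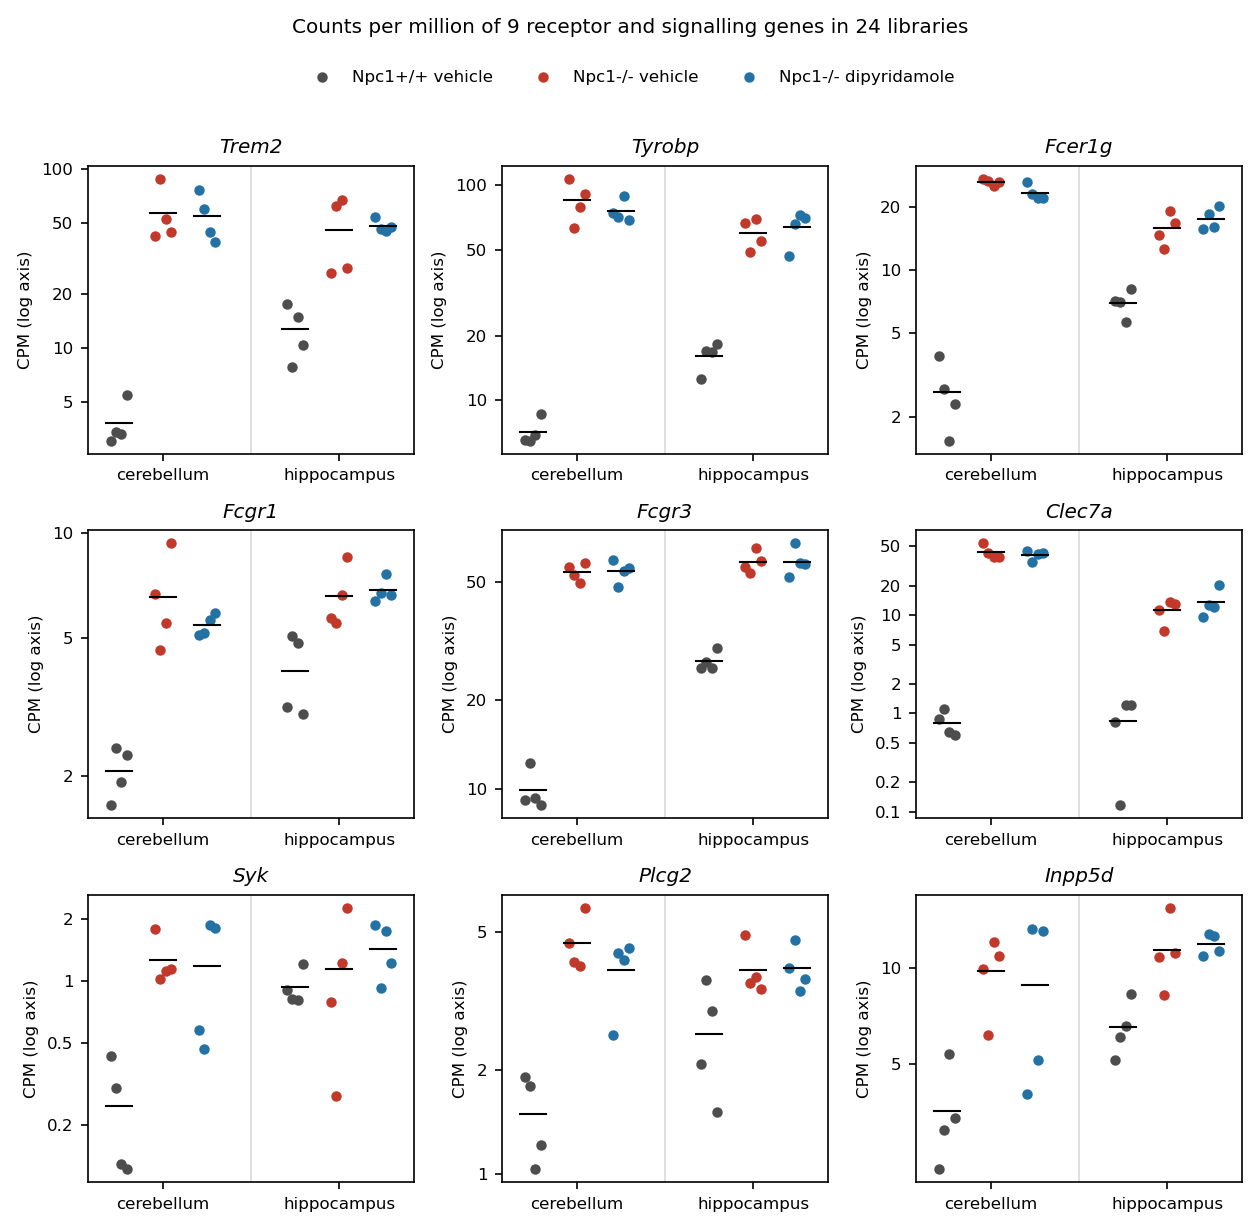
CPM on a log axis for 9 of the 10 genes, Fcgr2b being too low to plot, with a point for each library, a bar at the group mean of 4 libraries and colours for the 3 mouse groups. Clec7a lies between 0.117 and 1.21 CPM in the Npc1+/+ libraries and between 34.6 and 53.7 CPM in the 8 Npc1-/- cerebella, and the red and blue groups overlap in each panel.

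In the hippocampus, 5 of 8 tested genes were higher in Npc1-/- vehicle mice, namely Clec7a, Tyrobp, Trem2, Fcer1g and Fcgr3, where 1.02% of all 12740 tested genes were called higher and 0.597% lower. Clec7a, which passed the count filter through the Npc1-/- libraries, could only be called higher. The median fitted log2 difference of the 8 genes was 1.25, and that of all genes was -0.01. The groups did not overlap for 6 of these 8 genes, against 6.29% of all tested genes. Without the hippocampal libraries of Npc1-/- vehicle replicate 2, shallow at 3.84 M counts, and of dipyridamole replicate 4, the count was again 5 of 8, as it was with a choroid plexus score as covariate. The hippocampal calls leaned on the single female of the Npc1-/- vehicle group: without that mouse, replicate 3, Clec7a and Tyrobp were the 2 of 8 past the threshold, and the Trem2 difference was 1.48 (edgeR adjusted p = 0.366). Sex is then estimated from the dipyridamole mice alone, since the other Npc1-/- vehicle mice are all male. Among female mice only, with a single Npc1-/- vehicle mouse assumed to vary like the rest, it was 4 of 8, without Fcer1g (edgeR adjusted p = 0.0869). With the replicate number of the labels as a block the count was also 2 of 8, and it was 3 of 8 when only both groups compared were fitted; under the block the adjusted p (edgeR) was 0.10 for Trem2, 0.0746 for Fcer1g and 0.0630 for Fcgr3.

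**Figure D2:**
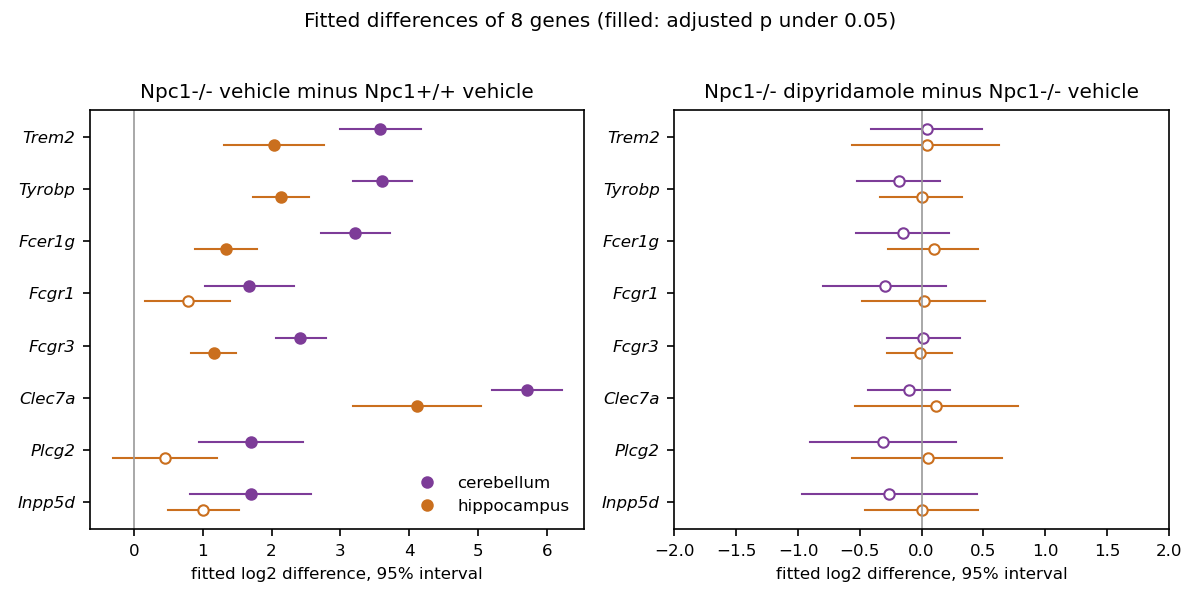
Fitted log2 differences with approximate 95% intervals (a fixed multiple of the SE) for 8 genes, on the left between Npc1-/- and Npc1+/+ vehicle mice and on the right between dipyridamole and vehicle in Npc1-/- mice, with purple for cerebellum, orange for hippocampus and filled points for an adjusted p under 0.05. On the left all 8 cerebellar and 5 hippocampal points are filled, and on the right none is filled and every interval crosses 0.

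The difference between tissues was tested directly over all 24 libraries with the mouse as block. The genotype difference was smaller in hippocampus than in cerebellum for 4 of 9 tested genes, while 0.543% of all 13436 tested genes were called lower in this sense. The log2 difference of the effects was -1.91 ± 0.34 for Fcer1g (edgeR adjusted p = 0.00680), -1.54 ± 0.35 for Trem2 (edgeR adjusted p = 0.0363), -1.42 ± 0.25 for Tyrobp (edgeR adjusted p = 0.00645) and -1.25 ± 0.26 for Fcgr3 (edgeR adjusted p = 0.0216), each with its SE. All 9 estimates were below 0, and the other 5 did not pass: Clec7a at -1.54 ± 0.62, Syk at -2.49 ± 0.96, Plcg2 at -1.20 ± 0.54, Fcgr1 at -0.83 ± 0.41 and Inpp5d at -0.69 ± 0.49 (edgeR adjusted p from 0.376 to 0.799). Without Npc1-/- vehicle replicate 3 none of the 9 passed, and without Npc1+/+ replicate 3 only Tyrobp and Fcer1g did. Trem2 also missed it without each of the other Npc1-/- vehicle mice in turn (edgeR adjusted p from 0.0711 to 0.0751), and without the mouse block (edgeR adjusted p = 0.266).

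Starting levels differed between the tissues. In Npc1+/+ mice 7 of 9 tested genes were higher in hippocampus than in cerebellum, against 21.8% of all tested genes: Syk by 1.79 ± 0.61, Trem2 by 1.73 ± 0.22, Fcgr3 by 1.45 ± 0.15, Fcer1g by 1.42 ± 0.21, Tyrobp by 1.17 ± 0.15, Fcgr1 by 0.94 ± 0.24 and Inpp5d by 0.91 ± 0.29 on the log2 scale with SE (edgeR adjusted p from 5.42e-07 to 0.0246). Plcg2 at 0.73 ± 0.32 (edgeR adjusted p = 0.0769) and Clec7a at -0.06 ± 0.48 (edgeR adjusted p = 0.943) did not pass. The count ran from 5 to 8 when each Npc1+/+ mouse was left out in turn: Syk lost its call without replicate 2, 3 or 4 (edgeR adjusted p of 0.0503, 0.0759 and 0.0919), and Inpp5d without replicate 2 or 4 (edgeR adjusted p of 0.0540 and 0.0544). Of the 12 homeostatic microglial markers, 11 were higher in Npc1+/+ hippocampus as well. In Npc1+/+ mice each of these genes but Clec7a, split 2 and 2, was higher in hippocampus in 4 of 4 mice. In Npc1-/- vehicle mice the genes differed in direction. Tyrobp, Fcer1g and Clec7a were lower in hippocampus than in cerebellum in 4 of 4 mice, Fcgr3 and Inpp5d were higher in 4 of 4, and Trem2 was lower in 3 of 4. Clec7a differed most in level there, at 43.8 ± 6.91 CPM in cerebellum and 11.3 ± 3.09 CPM in hippocampus (SD, n = 4 each).

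Dipyridamole did not move any of the 8 tested genes past the threshold in either tissue, and Fcgr2b and Syk were too low to test. None of the 8 was called in cerebellum or in hippocampus, and 0% of all genes were called in either (edgeR), as with DESeq2. An unadjusted p under 0.05 (edgeR) was found for 300 of 12921 genes in cerebellum and 93 of 12740 in hippocampus, none among the 8. Both are below the share of 0.05 that chance alone gives. The tissue difference of the drug effect gave no call among 9 genes or among all genes (0%, edgeR), and none by DESeq2. Here 222 of 13436 genes had an unadjusted p under 0.05 (edgeR), also below that share. All 8 genes overlapped between dipyridamole and vehicle mice in each tissue, where 1.22% of tested genes in cerebellum and 1.20% in hippocampus did not overlap. The median fitted log2 difference of the 8 was -0.17 in cerebellum and 0.03 in hippocampus.

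For the receptors and adaptors the intervals of the drug difference were narrow beside the genotype difference. In cerebellum Trem2 was 76.6, 59.8, 44.8 and 39.2 CPM with dipyridamole, around the vehicle values, and its log2 difference was 0.04 with an approximate 95% interval of -0.41 to 0.49. All such intervals use a fixed multiple of the SE and are somewhat narrower than exact ones. Clec7a was 44.4, 34.6, 42.1 and 42.6 CPM, a difference of -0.10 with an interval of -0.43 to 0.23. Tyrobp was 74.6, 71.0, 89.1 and 69.2 CPM (-0.18, interval -0.52 to 0.15), and Fcgr3 was 59.0, 47.8, 54.3 and 55.5 CPM (0.01, interval -0.28 to 0.31). Fcer1g gave 26.3, 23.0, 22.2 and 22.0 CPM, of which 3 values lay below all 4 vehicle values (-0.15, interval -0.53 to 0.22).

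The less abundant genes left wider intervals. The cerebellar difference with dipyridamole was -0.30 for Fcgr1 (interval -0.80 to 0.20), -0.31 for Plcg2 (-0.90 to 0.28) and -0.26 for Inpp5d (-0.97 to 0.45). Inpp5d split within the group, with 4.03 and 5.16 CPM in replicates 1 and 3 and 13.2 and 13.0 CPM in replicates 2 and 4, and Syk split in another way, with 5 and 3 counts in replicates 1 and 2 and 17 and 17 in replicates 3 and 4. In hippocampus the 8 differences lay between -0.01 and 0.12, and the widest interval was that of Clec7a, -0.54 to 0.78. Treated Npc1-/- mice remained above Npc1+/+ mice: 7 of 8 genes did not overlap in cerebellum, all but Inpp5d, and 7 of 8 in hippocampus, all but Plcg2, where 13.0% and 6.82% of tested genes were higher with no overlap.

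The genes were also set against 12 genes of resting microglia (P2ry12, Tmem119, Cx3cr1 and others), as the log2 CPM of each gene minus the mean log2 CPM of the markers in the same library. That mean was itself higher in Npc1-/- vehicle cerebellum (3.65 ± 0.17) than in Npc1+/+ cerebellum (2.58 ± 0.13; SD, n = 4 each), and 7 of the 12 markers were called higher there and none in hippocampus, where the means were 4.38 ± 0.10 and 4.01 ± 0.04. The 12 markers did not move together, with fitted log2 differences from -1.27 to 2.20 in cerebellum and from -1.16 to 1.95 in hippocampus. Their summed CPM had a median of 174 in Npc1+/+ and 566 in Npc1-/- vehicle cerebellum. The relative values thus depend on the average used, and the genes were not set against the sum. Relative to the mean of the markers, Clec7a stood 4.33 higher in Npc1-/- vehicle than in Npc1+/+ cerebellum, Trem2 2.72, Tyrobp 2.45, Fcer1g 2.21 and Fcgr3 1.35. For these 5 genes the relative values of the groups did not overlap in either tissue, while 1.01% of all tested genes in cerebellum and 1.43% in hippocampus were higher with no overlap on this scale. In hippocampus the differences were 3.17 for Clec7a, 1.51 for Tyrobp, 1.39 for Trem2, 0.77 for Fcer1g and 0.73 for Fcgr3. For Fcgr1, Plcg2 and Inpp5d the relative difference was between 0.25 and 0.45 in both tissues and the groups overlapped. Syk stood at 0.56 in cerebellum and -0.35 in hippocampus, with overlap in both. Fcgr2b, with at most 3 counts per library, stood at -0.93 in cerebellum and at -0.33 in hippocampus, with overlap in hippocampus. It had 0 counts in the 4 Npc1+/+ cerebella and 1 count in the 4 Npc1-/- vehicle cerebella. Its cerebellar value therefore mirrors the rise of the marker mean and says nothing about Fcgr2b. These values are descriptions with no test.

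**Figure D3:**
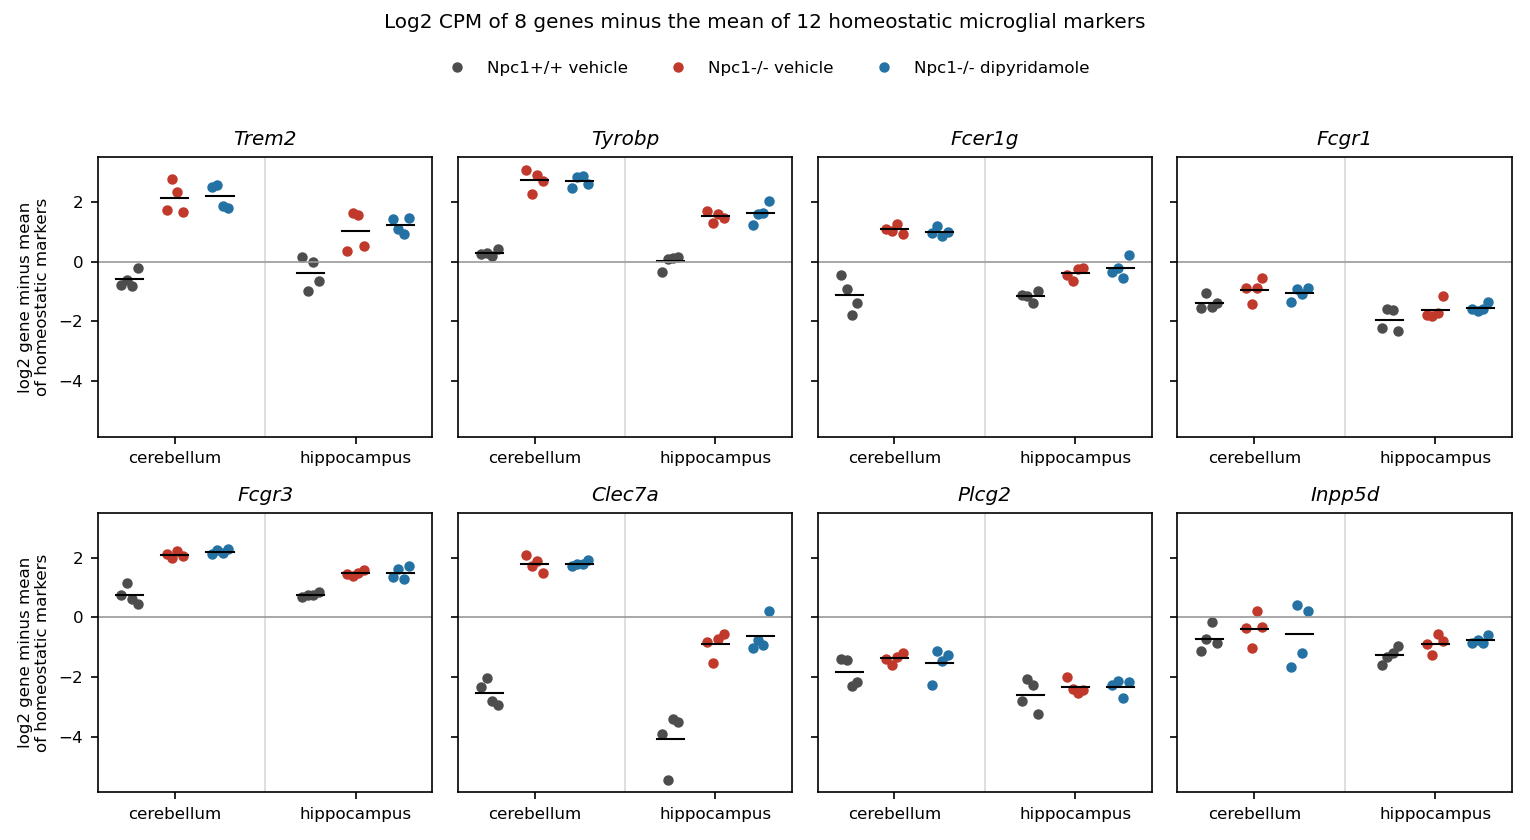
Log2 CPM of each gene minus the mean log2 CPM of 12 homeostatic microglial markers in the same library, with a point for each library and a bar at the group mean of 4 libraries. Npc1-/- points of Trem2, Tyrobp, Fcer1g, Fcgr3 and Clec7a lie above the Npc1+/+ points in both tissues, while those of Fcgr1, Plcg2 and Inpp5d overlap with them.

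Other cell types were checked by their markers. Summed over 7 border macrophage markers, Npc1+/+ cerebella held 7.02 to 9.38 CPM and Npc1-/- vehicle cerebella 8.10 to 11.8 CPM, and in hippocampus the ranges were 5.69 to 7.85 and 5.27 to 6.33 CPM. The 6 monocyte markers summed to 29.3 to 63.2 and 69.3 to 96.8 CPM in cerebellum and 28.4 to 43.0 and 40.4 to 50.4 CPM in hippocampus, with Ly6c2 and Chil3 at 0 counts in all 4 of these groups. The 1 monocyte marker with enough counts to test was not called, with log2 differences of 0.72 in cerebellum and 0.27 in hippocampus. The 9 neutrophil markers summed to 0.300 to 3.63 and 2.98 to 6.17 CPM in cerebellum and 0.134 to 1.36 and 0.824 to 5.07 CPM in hippocampus, with Cxcr2 at 0 counts in each. The 10 T and NK cell markers summed to 0.792 CPM or less in every vehicle library. In the same order the 5 B cell markers summed to 0.897 to 3.73 and 4.11 to 6.73 CPM in cerebellum and to 0.117 to 0.453 and 0 to 1.11 CPM in hippocampus, with Cd79a at 0 counts. Pax5, the 1 B cell marker with enough counts to test, was called higher in Npc1-/- cerebellum (1.43 ± 0.39, edgeR adjusted p = 0.0240). The 5 red blood cell markers summed to 3.6 to 9.2 and 1.25 to 4.29 CPM in cerebellum, where Alas2, the 1 tested, was called lower (-1.70 ± 0.50, edgeR adjusted p = 0.0389), and to 2.34 to 5.73 and 0.713 to 3.96 CPM in hippocampus. Hbb-bs, Hbb-bt and Hba-a2 had 0 counts in every library. Hba-a1 had counts only in Npc1+/+ cerebellum, so in the other groups the sum was Alas2 alone. The 6 mast cell and basophil markers, with Fcer1a at 0 counts, summed to 54.3 to 88.8 and 40.6 to 77.3 CPM in cerebellum and 27.6 to 39.1 and 25.7 to 35.5 CPM in hippocampus. The part of these cells in the results was not tested. Each library's slope of gene level on GC content was between -0.112 and -0.046 in Npc1+/+ cerebella and between -0.022 and 0.127 in Npc1-/- vehicle cerebella, log2 per 10 percentage points. With that slope as a covariate, 8 of 8 genes passed in cerebellum and 6 of 8 in hippocampus.

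Over the 24 libraries, the genes whose pattern was nearest to Trem2, by the root mean square difference of log2 CPM after centring each gene, were C1qc (0.32), C1qb (0.48), Itgb2 (0.50), Cd52 (0.51) and Ctss (0.53), out of 12299 compared. Its adaptor Tyrobp was at rank 7 (0.55), Fcer1g at rank 9 (0.58) and Fcgr3 at rank 25 (0.69). The genes nearest to Clec7a were Atp6v0d2 (0.48), Cd22 (0.56), Lyz2 (0.61), Itgax (0.72) and Cst7 (0.83), and the nearest of the other members was Tyrobp at rank 19 (1.18). Of these 5 genes, Cst7 had 0 counts in both Npc1+/+ groups, Atp6v0d2 had 3 counts in cerebellum and 2 in hippocampus, and Cd22 had 3 and 2. Clec7a was itself near the detection limit in Npc1+/+ mice, so its likeness to Cst7, Atp6v0d2 and Cd22 rests in part on shared low counts. Lyz2 was well above the detection limit in Npc1+/+ mice, at 17.5 ± 2.38 CPM in cerebellum and 11.6 ± 1.69 CPM in hippocampus (SD, n = 4 each).

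In Npc1-/- mice Trem2 and its adaptor Tyrobp did not keep a fixed ratio from mouse to mouse. The log2 level of Trem2 minus that of Tyrobp was, in cerebellum and hippocampus, -1.34 and -1.34, 0.48 and 0.35, -0.58 and -0.05, and -1.03 and -0.95 in the 4 vehicle mice. In the 4 dipyridamole mice it was 0.04 and 0.21, -0.25 and -0.51, -0.99 and -0.69, and -0.82 and -0.57. Over the 8 mice the ratios of both tissues correlated with Pearson's r of 0.91 and Spearman's rho of 0.98, and r was 0.79 without the 2 mice farthest from the median. The pair was chosen after the values were seen, so these are descriptions with no test, and with 4 mice in each group no value was computed within a group. Among the 10 pairs of the 5 genes called in both tissues, Trem2 gave the 4 highest r: beside Tyrobp, 0.85 against Fcer1g, 0.84 against Clec7a and 0.69 against Fcgr3. For Tyrobp without Trem2, r was 0.54 against Fcer1g, 0.45 against Fcgr3 and -0.15 against Clec7a. This order depended on the extreme mice, and the Trem2 pairs share the same Trem2 values. Without the 2 farthest mice of each pair, the highest r of the 10 was 0.82, for Tyrobp against Fcer1g. For Trem2 it was then 0.64 against Fcer1g, 0.69 against Clec7a and 0.39 against Fcgr3. For Tyrobp it was 0.12 against Fcgr3 and -0.21 against Clec7a. The ratio of Trem2 to Tyrobp also moved with traits of the library. Its r with the GC slope was 0.71 in cerebellum and 0.78 in hippocampus, or 0.91 and 0.29 without the 2 farthest mice. Its r with the log2 total count was -0.70 and -0.12, or 0.21 and 0.74 without them. The part of these traits in the ratio was not tested.

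**Figure D4:**
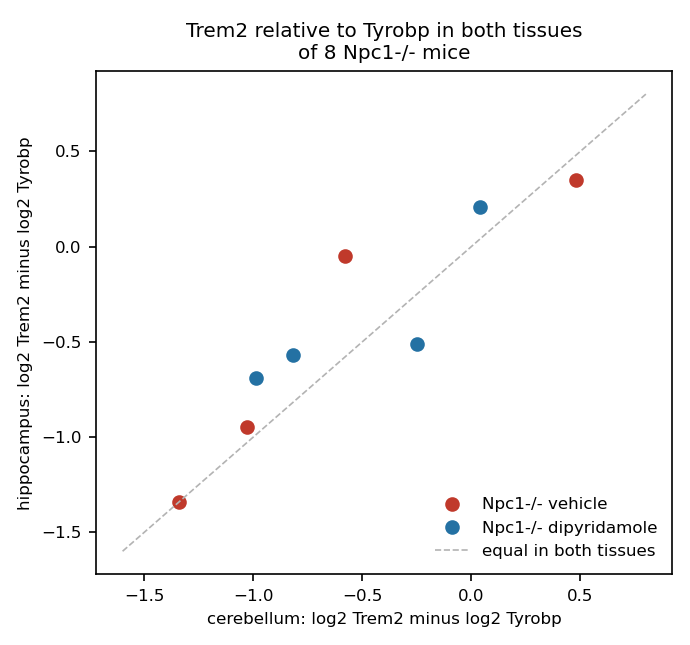
Log2 CPM of Trem2 minus log2 CPM of Tyrobp in the cerebellum, on the horizontal axis, and in the hippocampus, on the vertical axis, with a point for each of the 8 Npc1-/- mice. The points run from -1.34 in both tissues to 0.48 and 0.35, with vehicle and dipyridamole mice mixed along the line.

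Counts in the lists of other pathway genes are set against 5.91% higher and 4.04% lower among all genes tested in cerebellum, and 1.02% and 0.597% in hippocampus; 1 of 8, 1 of 13 or 1 of 20 is near those shares for cerebellum and is not a result about the list. Of the other genes of the pathway, receptors that use the same adaptors were partly measurable, with 7 of 22 listed passing the count filter in cerebellum. Of these, 4 rose and none fell: the C-type lectin receptor Clec4d, Cd300c2, the adaptor Hcst (2.54 ± 0.39 for Cd300c2 and 1.91 ± 0.53 for Hcst, log2 with SE) and the CSF1 receptor Csf1r (1.29 ± 0.23). Clec4d had 0 counts in the 4 Npc1+/+ cerebella and 78 in the 4 Npc1-/- vehicle cerebella, at least 38.6-fold higher against a floor of 3 counts over the group. It passed the count filter through the Npc1-/- libraries alone, so it could only be called higher. In hippocampus 5 were tested and none passed; the smallest p belonged to Cd300c2 (1.59 ± 0.47) and Hcst (1.87 ± 0.64), with edgeR adjusted p of 0.142 and 0.228.

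Receptors with inhibitory motifs and their phosphatases were among the genes called. In cerebellum 7 of 11 tested rose and none fell, led by Cd22, a sialic acid-binding lectin, then Cd300lf (3.77 ± 0.39), the phosphatase Ptpn6 (2.44 ± 0.37) and Cd33 (2.20 ± 0.38), log2 with SE. Cd22 had 3 counts in the 4 Npc1+/+ cerebella and 190 in the 4 Npc1-/- vehicle cerebella, a ratio of 94.0 with a 95% counting interval of 31.7 to 460. In hippocampus 5 of 10 rose and none fell, led by Cd22, Cd300lf (4.90 ± 0.78), Cd300a (2.03 ± 0.37) and Cd33 (1.35 ± 0.31). Cd22 went there from 2 to 97 counts, a ratio of 65.1 (17.5 to 545). In both tissues Cd22 passed the count filter through the Npc1-/- libraries alone, so it could only be called higher.

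Among ligands and sheddases of Trem2, 3 of 5 rose in cerebellum: Apoe by 1.69 ± 0.16, the lipase Lpl by 1.52 ± 0.45 and Clu by 0.67 ± 0.17 on the log2 scale with SE. In hippocampus 1 of 5, Apoe, rose, by 0.95 ± 0.15. Of 8 tested Src family kinases and their regulators, 1 rose in cerebellum, the phosphatase Ptprc (2.27 ± 0.31), and none of 7 in hippocampus, where the smallest p were those of Ptprc (1.3 ± 0.35, edgeR adjusted p = 0.101) and Fyn (-0.12 ± 0.18, edgeR adjusted p = 0.849).

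Behind Syk, adaptors and downstream enzymes moved in part. Of 13 tested adaptors and ubiquitin ligases in cerebellum, 3 rose, the scaffolds Blnk (3.61 ± 0.29), Lcp2 (2.80 ± 0.35) and Dok1 (1.72 ± 0.39), and 1 fell, the phosphatase Ubash3b (-0.77 ± 0.21), log2 with SE. Blnk was also the only pathway gene outside the 10 whose genotype difference was smaller in hippocampus (-2.31 ± 0.39, edgeR adjusted p = 0.00510). Of 20 downstream kinases, exchange factors and lipid enzymes, 5 rose and 1 fell in cerebellum, with the kinase Btk (2.66 ± 0.52), the PI3-kinase subunit Pik3r5 (2.05 ± 0.41), the exchange factor Vav1 (2.02 ± 0.39) and the adaptor Pik3ap1 (1.91 ± 0.43) leading the 5. The gene that fell was Dgkz, a diacylglycerol kinase (-0.94 ± 0.25), chosen for its direction after its value was seen. In hippocampus none of the 13 and none of the 19 tested passed, and the smallest p were those of Blnk (1.33 ± 0.33, edgeR adjusted p = 0.0682) and Dok3 (-1.39 ± 0.43, edgeR adjusted p = 0.163) among adaptors. Among the downstream genes they were those of Pik3r5 (1.83 ± 0.54, edgeR adjusted p = 0.144) and Nfatc1 (0.71 ± 0.25, edgeR adjusted p = 0.242). No gene of the 6 lists passed between dipyridamole and vehicle in either tissue.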

How the data were processed

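RNA of 24 libraries was read by amplicon sequencing. The authors deposited raw read counts per gene, 1 file per library; per the submitters' processing notes, FastQC 0.11.9, Trimmomatic 0.39, STAR 2.7.9a and featureCounts 2.0.3 were used with GRCm39, and GENCODE mouse release M 34 was counted without regard to strand, per the file headers. Replicates are separate mice.

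Within each tissue, edgeR 4.0.16 (R 4.3.3; TMM factors, default count filter over 3 groups, robust quasi-likelihood fit, sex as covariate) was run on 12 libraries. Differences between tissues were fitted over 24 libraries with the mouse as block and tissue by sex. The p-values were adjusted over all genes tested, with a threshold of 0.05. CPM used TMM factors over all libraries, and log2 CPM a prior count of 2. Rows without a gene symbol held 0.21% of counts. The fits were tested on simulated data. Figures, correlations and sums used Python 3.11.15, scipy 1.17.1 and matplotlib 3.10.9.

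All 10 genes were named, and of each pathway list up to 4 called genes with the largest change, or 2 with the smallest p where none passed; for Trem2 and Clec7a, the 5 genes most like each. The genes and lists were chosen with earlier results of these data known. The labels do not say whether replicate numbers pair mice across groups. Deviations of same-numbered libraries correlated between -0.32 and 0.38 over 16 pairs. Those of both tissues of a mouse, a known pair, correlated between -0.34 and 0.39 over 12 pairs, so these correlations cannot tell whether the numbers pair mice. Alternatives were DESeq2 1.42.0, RLE factors, other filters, designs with and without sex or a block, only the groups compared, females only and each library left out; covariates for GC slope and choroid plexus were added after the data were seen. Intervals on counts cover counting error only.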

Additional observations from a re-analysis of the deposited data

Results flagged for a closer look

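The genotype difference was smaller in hippocampus than in cerebellum by a direct test for 4 genes: on the log2 scale by -1.54 for Trem2, -1.42 for Tyrobp, -1.91 for Fcer1g and -1.25 for Fcgr3.

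A single library stood apart from the other 3 of its group, by Dixon's test at the 95% level, in 3 of 54 groups of 4 values checked, and chance flags about 1 in 20. Trem2 was 5.45 CPM in Npc1+/+ cerebellum replicate 4, where the others were 3.04 to 3.40 CPM. Fcgr3 was 12.2 CPM in Npc1+/+ cerebellum replicate 2, against 8.84 to 9.36 CPM. Syk was 1.79 CPM in Npc1-/- vehicle cerebellum replicate 1, against 1.03 to 1.15 CPM, from 15 counts.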

How the results depend on the processing

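Of 1025 values recomputed under an alternative, 916 kept their direction and side of the threshold (or stayed within 1.5 times for counts), 29 lost the call, 5 gained it, 70 changed sign and 5 counts moved further; 69 of the 70 sign changes were dipyridamole differences, none of them called. In cerebellum 6 to 9 of the 10 genes were higher in Npc1-/- vehicle mice under every alternative run. Inpp5d lost its call with the replicate block (1.53, edgeR adjusted p = 0.129), and Fcgr1 and Plcg2 when only the groups compared were fitted (edgeR adjusted p of 0.0856 and 0.125). Among female mice only, Plcg2 in cerebellum (edgeR adjusted p = 0.0693) and Fcer1g in hippocampus (edgeR adjusted p = 0.0869) lost theirs. The Npc1+/+ tissue difference, 7 genes, was 6 with the stricter filter and 5 to 8 with a mouse left out. In hippocampus the count of 5 became 2 with the replicate block and 3 with only the groups compared, and ran from 2 to 6 when a library was left out. Clec7a and Tyrobp kept their hippocampal calls in all 19 alternatives. The count of 4 for the tissue difference ran from 0 to 4 when a mouse was left out. The cause was not tested.

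Dipyridamole differences changed sign as follows. In cerebellum: Trem2 -0.02 without sex, -0.34 in females, -0.12 with the GC slope; Fcgr1 0.06, Clec7a 0.11 and Plcg2 0.11 in females; Fcgr3 -0.01 with the replicate block. In hippocampus, females gave Trem2 -0.54, Tyrobp 0.04, Fcer1g -0.08 and Plcg2 -0.06; the replicate block gave Tyrobp 0.01, Plcg2 -0.01 and Inpp5d 0.07; no sex term gave Tyrobp 0.08 and Inpp5d 0.04. No filter gave Tyrobp 0.01 and Inpp5d 0.01, only the groups compared Tyrobp 0.00 and Inpp5d 0.00, and RLE factors and the stricter filter Inpp5d 0.00. The GC slope gave Tyrobp 0.03, Fcgr3 0.00 and Inpp5d 0.05, the choroid plexus score Fcgr1 -0.01 and Clec7a -0.04. Leaving out both doubtful libraries gave Fcer1g -0.02, Fcgr1 -0.02, Clec7a -0.16 and Plcg2 -0.01. The tissue difference of the drug effect for Trem2 was 0.00 with no replicate block.

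With each library left out, the cerebellar drug difference ran from -0.11 to 0.26 for Trem2, -0.06 to 0.11 for Fcgr3, -0.21 to 0.02 for Clec7a and -0.80 to 0.06 for Inpp5d. The hippocampal one ran from -0.13 to 0.38 for Trem2, -0.13 to 0.13 for Tyrobp, -0.04 to 0.17 for Fcgr1, -0.14 to 0.08 for Fcgr3, -0.01 to 0.25 for Clec7a, -0.04 to 0.15 for Plcg2 and -0.11 to 0.22 for Inpp5d. Its tissue difference ran from -0.04 to 0.18 for Trem2, -0.02 to 0.28 for Tyrobp, -0.26 to 0.13 for Fcgr3, -0.02 to 0.38 for Clec7a and -0.04 to 0.71 for Inpp5d, and the Npc1+/+ tissue difference of Clec7a from -0.36 to 0.52.

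Over all genes, 1286 calls in cerebellum became 2249 without sex, 2241 with the GC slope, 613 with the replicate block and 421 with only the groups compared, and 474 to 1866 with a library left out. In hippocampus 206 became 490, 360, 55 and 47, 419 with DESeq2 and 51 in females, and 31 to 238 with a library left out. The tissue difference went from 155 to 386 without the tissue by sex term and 27 to 227 with a mouse left out, and the cerebellar drug effect from 0 to 13 with no filter, none among the 10 genes. Depth limits Syk and Fcgr2b most, with 200 and 18 counts in all.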
